A study of Mus musculus with 250 samples.

Results

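The genes described here are 9 members of the fibroblast growth factor (FGF) system, chosen by name from the 24490 rows of the read count table of single mouse astrocytes. They are the receptor genes Fgfr1, Fgfr2, Fgfr3 and Fgfrl1, the ligand genes Fgf1 and Fgf2, and the feedback inhibitor genes Spry1, Spry2 and Spry4. All 9 have a row, and 8 of them have at least 1 read, as do 16367 of all rows. The data are full-length Smart-seq2 transcriptomes of 250 single cells titled as brain astrocytes, from C57BL/6 mice of about 3 months. All mice carried SM22-Cre and Rosa26-stop-tdTomato, in which Cre under the promoter of the smooth muscle protein SM22 removes a stop before the red fluorescent protein tdTomato. Fluorescence-activated sorting placed each cell in a well of a plate, and the sources used here do not state the gate. Tagln, the gene of SM22 itself, was detected in 5 cells. The column names join a well position to the prefix Brain.VSMC2 (162 cells) or Brain.VSMC3 (88 cells), read here as plates 2 and 3 and treated as batches. The prefix thus holds the letters VSMC, while the titles name astrocytes. Neither an animal nor a treatment is named, all cells form 1 group with no replicates that could be told apart, and no test was made between cells.

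FGFs are secreted ligands that bind receptor tyrosine kinases together with heparan sulfate chains at the cell surface. The activated receptor recruits adaptor proteins and drives the RAS-ERK cascade, which in turn induces its own inhibitors, among them the Sprouty proteins. In the adult brain, FGFR3 protein and RNA are widely used to mark astrocytes, and FGF signalling is known to help keep astrocytes in a resting state.

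The promoters of Fgfr3 and Spry2, the members found in the most cells, and of Fgf2, which had no read, are shown for orientation. They are RefSeq windows on GRCm38.p6, written 5′ to 3′ on the gene's strand, from 250 bases before to 50 bases after the annotated start, and 6 of the 9 members matched an entry of the table. Fgfr3 has a pair of starts, at chr5:33721474-33721773 and chr5:33722056-33722355 on the plus strand. The Spry2 window is chr14:105896770-105897069 on the minus strand, and the Fgf2 window is chr3:37348403-37348702 on the plus strand. Capitals mark matches to the GC box GGGCGG, the ETS-type motif CCGGAAG and the TATA box TATAAA, searched on both strands.
Fgfr3, first start: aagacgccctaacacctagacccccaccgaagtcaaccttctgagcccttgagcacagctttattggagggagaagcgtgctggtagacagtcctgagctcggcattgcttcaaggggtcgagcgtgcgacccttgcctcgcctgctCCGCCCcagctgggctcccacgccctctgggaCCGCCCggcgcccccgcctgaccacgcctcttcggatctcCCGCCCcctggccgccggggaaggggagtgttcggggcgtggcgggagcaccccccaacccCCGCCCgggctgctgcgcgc
Fgfr3, second start: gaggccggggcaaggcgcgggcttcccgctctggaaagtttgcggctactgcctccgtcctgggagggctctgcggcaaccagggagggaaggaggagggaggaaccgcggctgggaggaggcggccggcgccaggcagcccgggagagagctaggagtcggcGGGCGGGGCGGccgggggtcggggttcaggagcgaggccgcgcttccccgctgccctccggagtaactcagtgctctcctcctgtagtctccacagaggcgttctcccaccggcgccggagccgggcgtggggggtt
Spry2: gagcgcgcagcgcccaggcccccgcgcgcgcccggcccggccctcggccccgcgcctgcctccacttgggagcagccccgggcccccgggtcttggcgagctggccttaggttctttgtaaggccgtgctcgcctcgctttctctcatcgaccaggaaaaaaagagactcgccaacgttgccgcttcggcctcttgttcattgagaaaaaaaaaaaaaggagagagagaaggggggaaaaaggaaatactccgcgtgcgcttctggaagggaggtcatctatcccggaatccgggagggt
Fgf2: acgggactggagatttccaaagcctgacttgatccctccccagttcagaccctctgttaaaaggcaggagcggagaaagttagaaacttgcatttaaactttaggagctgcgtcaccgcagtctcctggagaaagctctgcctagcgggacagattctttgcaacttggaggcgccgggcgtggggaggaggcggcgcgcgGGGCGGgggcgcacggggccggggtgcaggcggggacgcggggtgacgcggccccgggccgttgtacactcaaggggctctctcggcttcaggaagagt
The Fgfr3 windows held 4 and 2 GC boxes, the pair at the second start overlapping, Fgf2 held 1 and Spry2 held 0. Of 32851 promoter windows in the table, 35.7% held a GC box, 8.86% the ETS-type motif and 13.6% the TATA box. None of these 4 windows held the last 2 motifs. GC content was 69.7% and 73.0% for Fgfr3 and 62.7% for both Spry2 and Fgf2, where the median window had 52.7%. These matches describe letters in a window and say nothing of binding.

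The cells held 102161 to 564958 counted reads, with a median of 256247 on plate 2 and 391072 on plate 3. A level is given as CPM, the reads of a gene per 1000000 counted reads of that cell, and detection means at least 10 CPM. Of 13 astrocyte markers, a cell had 8 to 13 detected, with a median of 12. In 44 cells (17.6%) at least 3 markers of another cell type were detected, mostly of oligodendrocytes, and 11 cells remained when that list was not used. Intervals are exact 95% intervals and cover counting error only. Those of shares of cells treat cells as independent, which cells of the same plate or mouse may not be. Those of read counts treat reads as independent, and copies made by PCR are not independent molecules.

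Fgfr3 was the leading FGF receptor transcript of these cells, Spry2 the leading Sprouty transcript and Fgf1 the leading ligand transcript. Fgfr3 was detected in 246 of 250 cells, Spry2 in 221, Fgfr1 in 175, Fgf1 in 108, Fgfr2 in 72, Fgfrl1 in 54, Spry4 in 18, Spry1 in 2 and Fgf2 in 0. Thus 3 of the 9 members, Fgfr3, Spry2 and Fgfr1, reached 50% of cells, as did 5.92% of the 16367 genes with reads. These 3 also reached 50% on plate 2, where 5.82% of genes did, and on plate 3, where 6.43% did. Fgfr3 alone reached 90% of cells, as did 0.947% of genes with reads. A cell had 1 to 7 of the 9 members, with a median of 4.

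**Figure D1:**
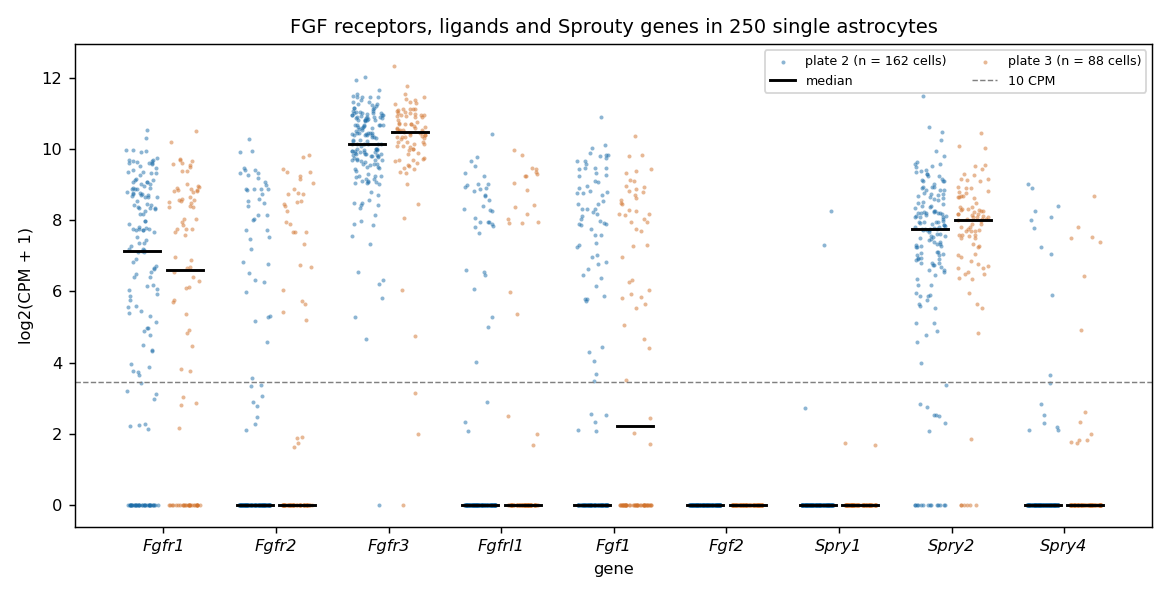
Level of each member in every cell, as log2(CPM + 1), by plate (162 and 88 cells), with black bars for medians and a dashed line at 10 CPM. Fgfr3 and Spry2 form high clouds with few cells at 0, Fgfr1 and Fgf1 divide into cells at 0 and cells mostly above the dashed line, and Fgf2 is at 0 in every cell.

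Fgfr3 codes for the receptor tyrosine kinase that marks astrocytes in the adult brain. Its level ranged from 0 to 5189 CPM with a median of 1305 CPM, and its mean was 1368 ± 805 CPM (SD between cells, n = 250). The quartiles were 829 and 1907 CPM. Cells with Fgfr3 made up 98.4% (96.0 to 99.6%), and its mean ranked 65 among all genes with reads. On plate 2 the median was 1138 CPM and on plate 3 it was 1418 CPM, and the ranges overlapped. Fgfr3 lies on chromosome 5 at 33721724 to 33737068 (GRCm38.p6), and 13.9% of its annotated exon bases are shared with the gene G630022F23Rik, which has no row in the table.

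The 4 cells below 10 CPM of Fgfr3 had 0, 0, 1 and 3 of its reads. They held 146944 (plate 2) and 333104, 381528 and 496912 counted reads (plate 3), and 3 of the 4 lay below the median of their plate. The part of depth in these values was not tested. They had 10 to 13 of the 13 astrocyte markers, and the cell with all 13 had 0 Fgfr3 reads among 496912. Fgfr1 stood at 384 and 501 CPM in 2 of them and at 6.81 and 0 CPM in the others. Low Fgfr3 was thus found beside most or all astrocyte markers.

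Fgfr1, the receptor with the broadest expression in the body, was present in most cells at a lower and more uneven level. It ranged from 0 to 1481 CPM with a median of 122 CPM and a mean of 252 ± 302 CPM (n = 250). Cells with Fgfr1 made up 70.0% (63.9 to 75.6%), 72.8% on plate 2 and 64.8% on plate 3. In the cells that had it, the median was 322 CPM. Fgfr1 lies on chromosome 8 at 25518759 to 25575718.

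Fgfr2, a receptor also known from oligodendrocytes and epithelia, was found in a minority of cells. It ranged from 0 to 1253 CPM with a median of 0 and a mean of 106 ± 221 CPM. It was detected in 28.8% (23.3 to 34.8%), 25.9% on plate 2 and 34.1% on plate 3. Where detected, its median was 346 CPM, close to that of Fgfr1 in its own cells, while the share of cells was lower than for Fgfr1. Fgfr2 lies on chromosome 7 at 130162451 to 130266808.

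Fgfrl1 codes for a receptor-like protein that binds FGFs but has no kinase domain. Its level ranged from 0 to 1368 CPM with a median of 0 and a mean of 88.7 ± 212 CPM. It was detected in 21.6% (16.7 to 27.2%), with 21.6% on each plate, and had a median of 339 CPM where detected. Only 6 further cells had a read below the threshold. Fgfr4, the remaining kinase receptor of the family, reached 10 CPM in 3 cells (1.2%) and averaged 0.340 CPM. Fgfrl1 lies on chromosome 5 at 108694229 to 108706950.

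Levels of different genes were compared per length, as CPM per kilobase of the union of annotated exons. On this scale Fgfr3 had a mean of 191 ± 112, Fgfrl1 31.9 ± 76.2, Fgfr1 25.5 ± 30.6 and Fgfr2 10.3 ± 21.4. Fgfr3 was above Fgfr1 in 239 cells, above Fgfrl1 in 227 and above Fgfr2 in 244. The means of Fgfrl1 and Fgfr1 lay within 1 SD of each other, and their order depends on the length used. Fgfr2 had the lowest mean with either length. Within cells, Fgfr1 was above Fgfr2 in 162 and below it in 48, and above Fgfrl1 in 149 and below it in 51. With the longest annotated transcript, Fgfr1 had 50.0, Fgfrl1 38.1 and Fgfr2 23.9 CPM per kilobase, while Fgfr3 had 322.

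Receptor composition was computed per cell as each gene's share of the summed CPM per kilobase of the 4 receptors. Fgfr3 held a mean share of 75.9 ± 23.9% (SD between cells, n = 250), with a median of 82.6% and quartiles of 64.0 and 96.3%. Fgfr1 held 11.8 ± 16.8%, Fgfrl1 8.18 ± 18.0% and Fgfr2 4.08 ± 8.73%. The plates gave Fgfr3 76.1% and 75.6%. Fgfr3 was the highest of the 4 in 218 cells (87.2%), Fgfrl1 in 20, Fgfr1 in 10 and Fgfr2 in 2. In 93 cells Fgfr3 held at least 90%, and in 37 cells it held under 50%.

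**Figure D2:**
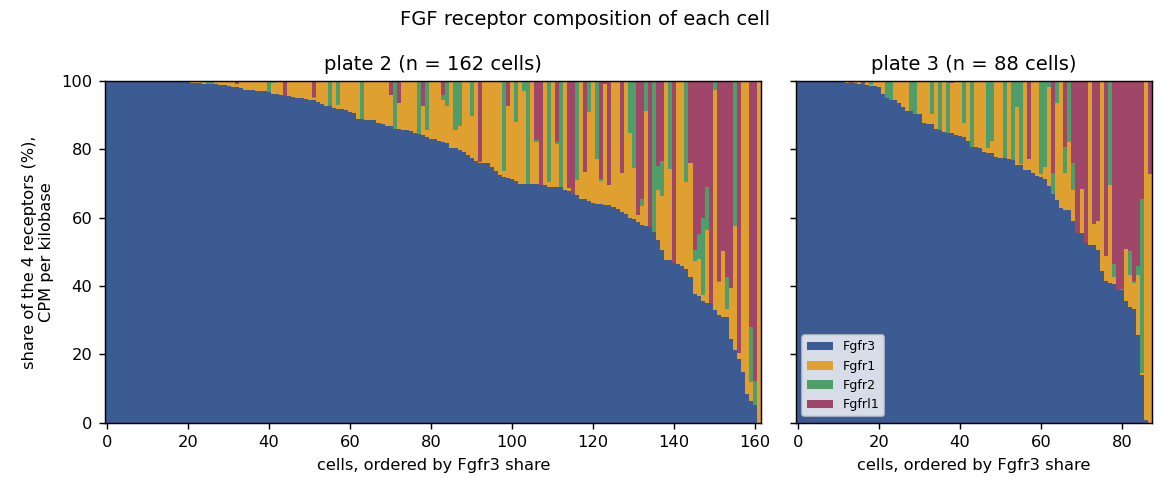
Share (%) of each receptor in the summed CPM per kilobase of the 4 receptors, 1 bar per cell, ordered by Fgfr3 share within plate 2 (162 cells) and plate 3 (88 cells). Fgfr3 makes up at least 50% of the bar in 213 cells and less in 37. The bars at the right end are filled by Fgfr1 in some cells and by Fgfrl1 in others.

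The most frequent receptor combination was Fgfr1 with Fgfr3, in 101 cells (40.4%, 34.3 to 46.8%). Fgfr3 alone was found in 41 cells (16.4%), Fgfr1, Fgfr2 and Fgfr3 together in 32, and Fgfr1, Fgfr3 and Fgfrl1 in 22. All 4 receptors were detected in 18 cells (7.2%) and none in 2. Every cell with Fgfr2 also had Fgfr3, 72 cells where independence within each plate gives 70.7. The number of receptors per cell was 2 in 131 cells, 1 in 42, 3 in 57 and 4 in 18. The median number of genes detected was 2280, 2379, 2483 and 2644.5 in cells with 1, 2, 3 and 4 receptors, and the part of this in the counts of receptors was not tested.

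Receptor pairs were detected together about as often as their separate shares give. Fgfr1 and Fgfr2 were found together in 50 cells, where independence within each plate gives 50.0. Fgfr1 and Fgfrl1 shared 41 cells, where independence gives 37.8. The pair farthest from 1 among receptors was Fgfr2 and Fgfrl1, with 21 cells where independence gives 15.6, a ratio of 1.35. These ratios have no interval and no test. Cells with more receptors had a higher median number of genes detected, and the part of this in the ratios was not tested.

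Among secreted ligands, Fgf1 was the one with appreciable reads. Fgf1 binds all FGF receptors and, like Fgf2, lacks a classical signal peptide. Its level ranged from 0 to 1907 CPM with a median of 0 and a mean of 163 ± 284 CPM (n = 250). Cells with Fgf1 made up 43.2% (37.0 to 49.6%), 40.1% on plate 2 and 48.9% on plate 3, with a median of 296 CPM where detected. Only 8 further cells had a read below 10 CPM, so cells were mostly either at 0 or well above the threshold. Fgf1 and Fgfr3 were detected together in 106 cells (42.4%), and Fgf1 and Fgfr1 in 81 (32.4%). Independence within each plate gives 106.1 and 75.2 cells. Fgf1 lies on chromosome 18 at 38838672 to 38929470.

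Fgf2, the basic fibroblast growth factor that is often assigned to astrocytes, had no read in any cell. With 0 of 250 cells, a count of 3 would be a share of 1.2%, and the exact 95% interval ends at 1.46% of cells with a read. Over 72773548 counted reads, the exact 95% interval ends at 3.69 reads. Fgf2 overlaps the antisense gene Nudt6: 895 of its 6782 annotated exon bases (13.2%) lie in exons of Nudt6 or Gm43439. Nudt6 itself had 91 reads in 9 cells. The sources used here do not say how reads in such overlaps were counted, and the part of the overlap in the count of Fgf2 was not tested. Fgf2 lies on chromosome 3 at 37348477 to 37410106.

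Of the other 13 secreted ligands, 9 had no reads, and Fgf7, Fgf9, Fgf17 and Fgf18 were each detected in 1 cell. Of all 24490 rows, 16367 had at least 1 read. The endocrine ligands Fgf15, Fgf21 and Fgf23 had no reads. The homologous factors Fgf11 to Fgf14, which stay inside the cell and modulate sodium channels, were detected in 17, 13, 14 and 13 cells, with Fgf11 highest at 20.4 ± 91.4 CPM. At least 1 of these 4 was found in 54 cells (21.6%).

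Partners of FGF receptors at the cell surface were more widely detected than ligands. Of the 21 coreceptors, proteoglycans and FGF-binding proteins on the list, 7 were detected in at least 50% of cells, where 5.92% of all genes with reads were. The adhesion molecule gene Ncam1, whose protein binds FGF receptors, was in all 250 cells at 1733 ± 906 CPM. The syndecan gene Sdc4, which codes for a heparan sulfate proteoglycan of the membrane, was in 242 cells at 948 ± 625 CPM. Its relatives Sdc2 and Sdc3 were in 149 and 151 cells, the glypican gene Gpc5 in 170, the agrin gene Agrn in 145 and the N-cadherin gene Cdh2 in 150. The klotho genes Kl and Klb, coreceptors of endocrine FGFs, were each in 1 cell. Per length, Sdc4 had 372 ± 245 and Ncam1 200.1 ± 105 CPM per kilobase, beside the 191 ± 112 of Fgfr3.

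Of the enzymes that build or edit heparan sulfate, 1 of 19 was detected in at least 50% of cells, a share near the 5.92% of all genes with reads. That gene was Extl1, an exostosin-like gene, in 132 cells (52.8%), 46.9% on plate 2 and 63.6% on plate 3. The median of the 19 genes, 1 of them without reads, was 8.0% of cells, and that of all genes with reads was 8.0%. Extl3, the most abundant of the list by mean CPM, had 139 ± 253 CPM in 103 cells. Of the adaptors and RAS-ERK cascade genes, 1 of 24 passed, also near that background, the kinase gene Araf in 140 cells at 171 ± 239 CPM. Frs2, the main docking protein of FGF receptors, was in 42 cells at 34.2 ± 106 CPM. Over all 106 pathway genes other than the members, 9 (8.49%) passed, and 16 had no reads. Of all 24490 rows, 16367 had at least 1 read. The median pathway gene, with those 16 included, was detected in 6.8% of cells. The median of 8.0% for all genes leaves out genes without reads, so these medians are not over like sets.

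**Figure D3:**
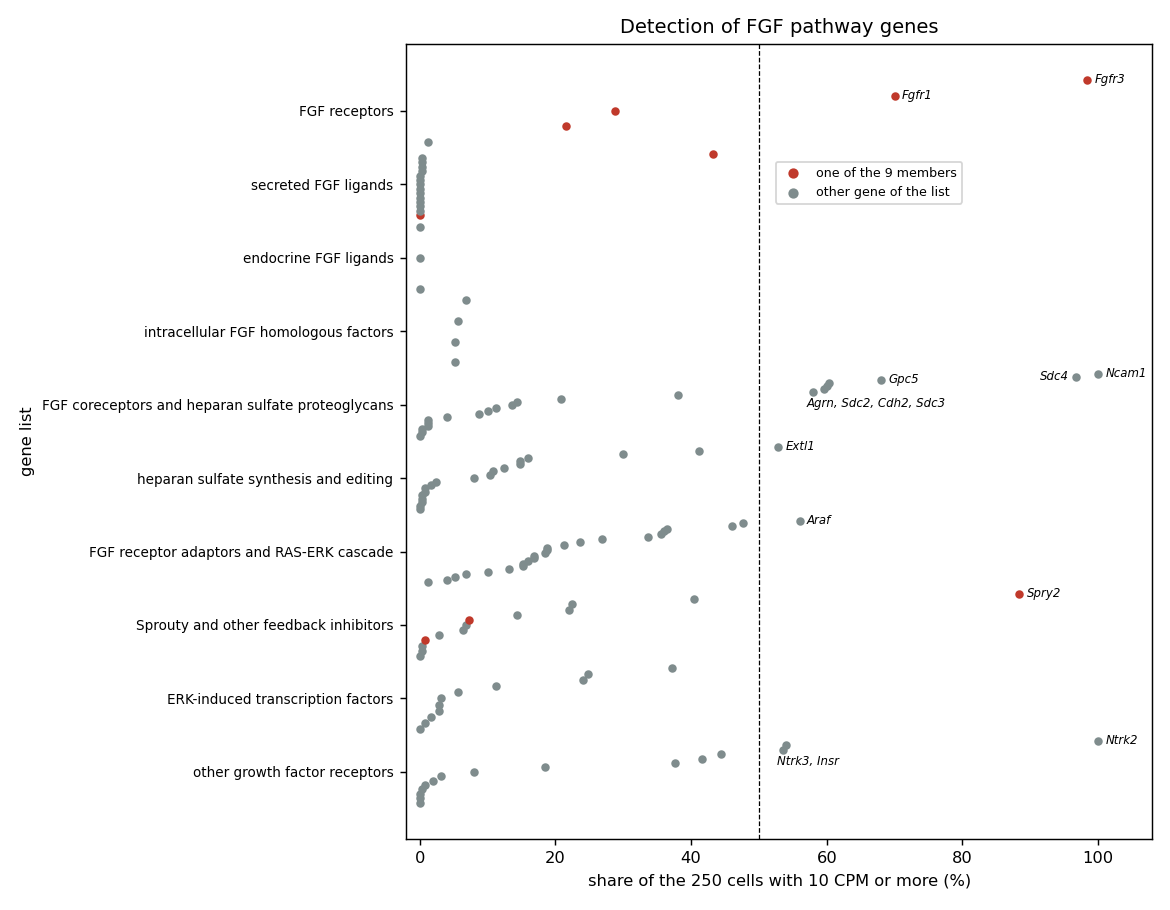
Share (%) of the 250 cells in which each gene of 10 lists was detected at 10 CPM, with the 9 members in red and a dashed line at 50%. Among ligands Fgf1 stands alone at 43.2%, while Ncam1 and Sdc4 lie at the level of Fgfr3 and Spry2 is the only feedback gene past the line.

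Spry2 was the Sprouty gene found in the most cells. Sprouty proteins block signalling between the receptor and the RAS-ERK cascade and are made in response to it. Spry2 ranged from 0 to 2863 CPM with a median of 224 CPM and a mean of 287 ± 305 CPM (n = 250). Cells with Spry2 made up 88.4% (83.8 to 92.1%), 86.4% on plate 2 and 92.0% on plate 3. Per length its mean was 137 ± 146 CPM per kilobase, and it was above Fgfr1 in 208 cells and below Fgfr3 in 168. Spry2 lies on chromosome 14 at 105891947 to 105896819.

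Spry4 and Spry1 were rare. Spry4 ranged from 0 to 520 CPM, with a mean of 16.3 ± 69.4 CPM, and was detected in 18 cells (7.2%, 4.32 to 11.1%). Of these cells, 15 also had Spry2, where independence within each plate gives 15.9. Spry1 had 99 reads in 5 cells, and 66 of them came from 1 cell; it was detected in 2 cells (0.8%, 0.0970 to 2.86%), and its mean of 1.89 CPM is 0.671 CPM without the highest cell. Spry3 had no reads. At least 1 of Spry1, Spry2 and Spry4 was detected in 225 cells (90.0%, 85.6 to 93.4%). Spry1 lies on chromosome 3 at 37639947 to 37644599 and Spry4 on chromosome 18 at 38586247 to 38601347.

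Other feedback genes and targets of ERK were found in fewer cells than Spry2. Of the 10 other feedback genes on the list, 0 were detected in at least 50% of cells, where 5.92% of all genes with reads were. The Sprouty-related gene Spred1 was in 101 cells at 128 ± 238 CPM, Spred3 in 55, and the ERK phosphatase gene Dusp6 in 36 at 40.8 ± 133 CPM, 9.88% on plate 2 and 22.7% on plate 3. Of the 11 genes of transcription factors and cell cycle genes induced by ERK, 0 passed. In lists of 10 and 11 genes, a count of 0 is near that share of all genes. The ETS factor gene Etv5 was in 93 cells at 60.5 ± 122 CPM and Etv4 in 62 at 68.6 ± 183 CPM. At least 1 of Etv1, Etv4 and Etv5 was found in 132 cells (52.8%, 46.4 to 59.1%), 48.1% on plate 2 and 61.4% on plate 3.

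Among other growth factor receptors, 3 of 15 were detected in at least 50% of cells, beside 5.92% of all genes with reads. Ntrk2, the receptor for brain-derived neurotrophic factor, was in all 250 cells at 2629 ± 1501 CPM. Per length it had 136 ± 77.8 CPM per kilobase, beside 191 ± 112 for Fgfr3, a difference smaller than the spread between cells. Ntrk3 and the insulin receptor gene Insr were in 134 and 135 cells, and the epidermal growth factor receptor gene Egfr in 104.

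The plates gave mean levels within 2-fold of each other for the members with enough reads to compare. Of the 6 members with a mean of at least 20 CPM, 0 differed 2-fold or more between plates, where 10.2% of 7289 such genes did. In a list of 6 genes, a count of 0 is near that share of all genes. Their log2 ratios of plate 3 to plate 2 were -0.13 for Fgfr1, 0.32 for Fgfr2, 0.18 for Fgfr3, 0.30 for Fgfrl1, -0.02 for Fgf1 and 0.05 for Spry2. The median absolute log2 ratio of all 7289 genes was 0.36. For Spry1, plate 2 held 97 reads (78.7 to 118), 66 of them in 1 cell, and plate 3 held 2 (0.242 to 7.22). Whether the plates came from different mice is not stated, and plates and mice cannot be told apart.

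The share of cells with a gene depends on its mean, so each member was set beside the genes whose mean CPM was at least 0.8 times its own and no higher than its own divided by 0.8, a comparison added after the values were seen. Spry2 was detected in 88.4% of cells, where 274 genes of similar mean had a median of 62.0%, and 9 of them were higher. Fgfr1, with 70.0%, lay above 81.9% of 348 such genes, which had a median of 58.8%. Fgfrl1 lay at the other side, with 21.6% where 1139 such genes had a median of 29.6%, and 9.48% of them were lower. Fgfr2 with 28.8% and Fgf1 with 43.2% stood beside medians of 34.0% and 46.0%. Fgfr3 with 98.4% stood beside 97.2% over 29 genes. Spry2 was thus detected in more cells than most genes of similar mean CPM, and Fgfrl1 in fewer. The genes were matched on CPM and not on length. Spry2 has 2087 annotated exon bases and Fgfrl1 2782, and the part of length in these shares was not tested.

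Rank correlations between members were near 0. Spearman's rho over cells was computed within each plate for the 21 pairs of the 7 members detected in at least 5 cells, and the plates were averaged. The mean rho ran from -0.0790 to 0.134 with a median of 0.0211. Of the 21 pairs, 8 were positive on both plates, 3 were negative on both and 10 had opposite signs. The highest was Fgfrl1 with Fgf1, at 0.0939 on plate 2 and 0.174 on plate 3, and the lowest was Fgf1 with Spry2, at 0.0381 and -0.196. These correlations describe cells that share library preparation and differ in depth, they carry no test, and values of this size in sparse counts are no finding.

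Receptor pairs were near 0 as well. Fgfr1 and Fgfr3 had 0.0695 on plate 2 and -0.100 on plate 3, and Fgfr1 and Fgfr2 had 0.0989 and -0.143. Fgfr2 and Fgfr3 had -0.00176 and 0.0440, and Fgfr3 and Fgfrl1 had 0.0804 and -0.0668. Fgfr1 and Fgfrl1 had 0.0681 and 0.0698, and Fgfr2 and Fgfrl1 had 0.132 and -0.00258. Fgfr3 and its feedback inhibitor gene Spry2 had -0.00423 and 0.00422, values near 0 on both plates. For 3702 genes detected in at least 20% of cells on each plate, the central 95% of mean rho with Fgfr3 ran from -0.131 to 0.130. Of the 21 pairs, 0 lay outside the central 95% for either of their genes.

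**Figure D4:**
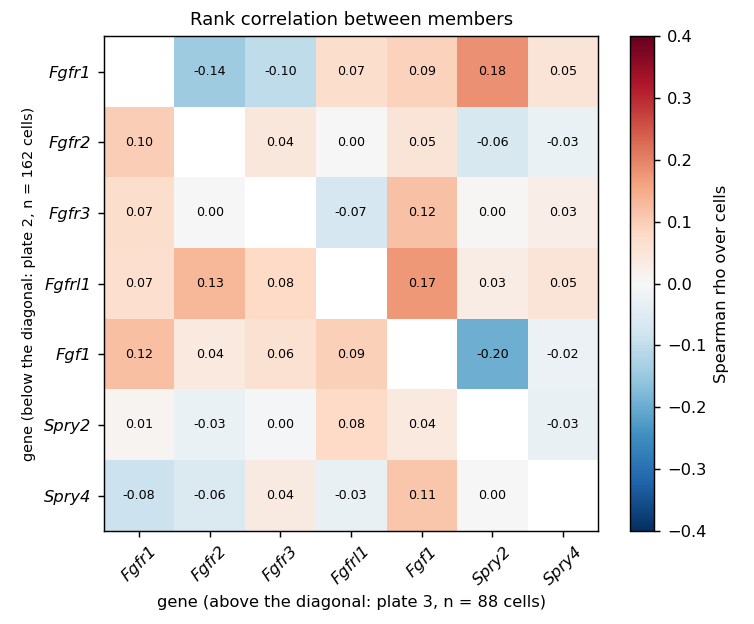
Spearman's rho over cells for each pair of 7 members, below the diagonal for plate 2 (162 cells) and above it for plate 3 (88 cells). Colours are pale throughout, and several pairs change sign between the plates, such as Fgfr1 and Fgfr3 at 0.0695 and -0.100.

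Relations of 40 other genes of the lists with the 7 members, 280 in all, had a mean rho of -0.168 to 0.173 with a median of 0.00934. Of these, 16 (5.71%) lay outside the central 95% of all genes for their member, 6 above and 10 below, so some lay farther from 0 than any pair of members. Spry2 had its highest mean rho among the listed feedback genes and ERK targets with Etv4, at 0.0876 on plate 2 and 0.253 on plate 3. Fgf1 had its highest with Etv5, at 0.135 and 0.211. Fgfr3 had 0.0146 and 0.00803 with Etv5, and 0.104 and -0.0322 with Dusp6. Ntrk2 and Spry2 had -0.155 and -0.177. Those of Spry2 with Etv4, Fgf1 with Etv5 and Spry2 with Ntrk2 are among the 16 and were picked for their size.

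The genes most like each widely detected member were found by the mean of the within-plate rho over 3702 genes. For Fgfr3 they included Id3 (0.249), Pik3r1 (0.228), Itga6 (0.224), Gpld1 (0.210) and Tnfaip8 (0.20), and among the lowest were Dlgap4 (-0.226) and Cdh10 (-0.209). For Fgfr1 they were Dmd, the dystrophin gene, (0.249), Rfng (0.221), Plcb4 (0.219), Atp6v0a2 (0.216) and Atp13a4 (0.210), and the lowest were Slc25a23 (-0.207), Otud4 (-0.190) and 2310061I04Rik (-0.188). For Spry2 they included Pdha1 (0.268), Gpd2 (0.248), Ank (0.237) and Htra1 (0.234). The lowest for Spry2 were Sparc (-0.271), Agt (-0.235) and Cachd1 (-0.221). These are the ends of the range over all 3702 genes, chosen for being there.

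The order of genes was not shared between plates as a whole. Across the 3702 genes, which are not independent replicates, the rank correlation between rho on plate 2 and rho on plate 3 was 0.0149 for Fgfr3, 0.00306 for Fgfr1 and 0.0790 for Spry2. Pik3r1, for example, had 0.0512 with Fgfr3 on plate 2 and 0.405 on plate 3. Spry2 with Agt had -0.245 and -0.225 on the plates, and with Sparc -0.192 and -0.349. Agt and Sparc differ in level between astrocytes of different brain regions, and the part of region in these values was not tested. Other genes set beside Agt and Sparc had, with Spry2, -0.175 and -0.202 (Itih3), -0.0363 and -0.0521 (Slc6a11), 0.00733 and -0.135 (Gfap) and 0.0177 and -0.109 (Serpina3n). With Fgfr3, Agt had 0.120 and -0.0798 and Sparc 0.130 and 0.0305. Itih3 had 0.186 and 0.110 with Fgfr3, Slc6a11 0.0871 and 0.0518, Gfap 0.0168 and -0.0240 and Serpina3n 0.00298 and 0.157.

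**Figure D5:**
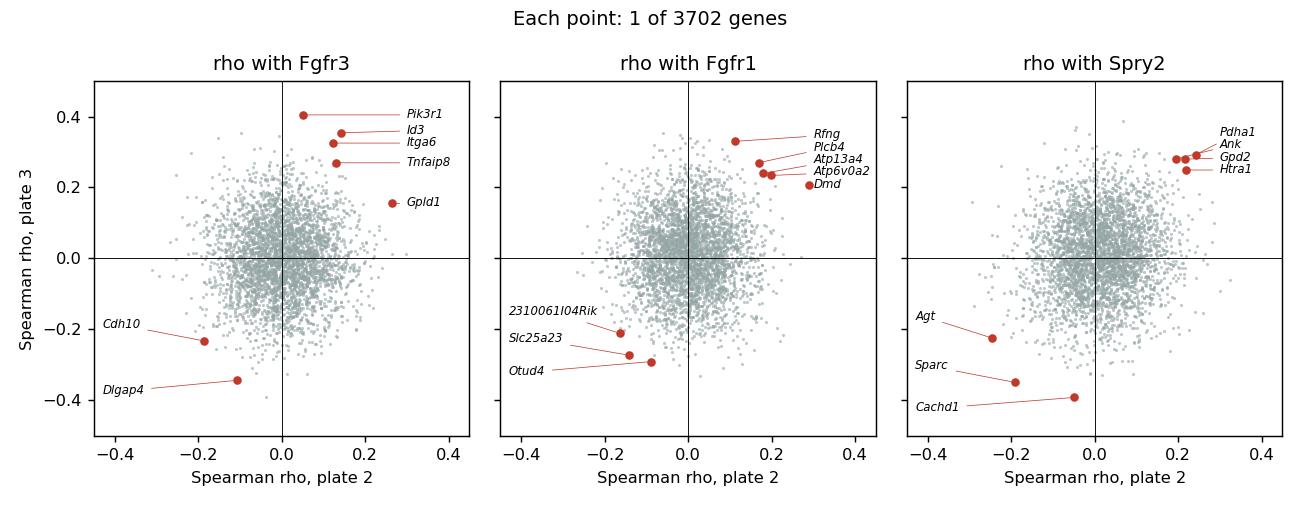
Spearman's rho with Fgfr3, Fgfr1 and Spry2 on plate 2 (horizontal) and plate 3 (vertical) for 3702 genes, with the genes named for each member in red. The clouds are round around 0, with rank correlations between the plates of 0.0149, 0.00306 and 0.0790.

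Depth and complexity moved with some members. The number of genes detected had a mean rho of 0.209 with Fgfr2 (0.171 on plate 2 and 0.247 on plate 3) and 0.225 with Fgfrl1 (0.227 and 0.224). Total reads had 0.147 with Fgfr1 (0.111 and 0.184) and -0.128 with Fgfr3 (-0.0392 and -0.217). Among summed markers of other cell types, those farthest from 0 were endothelial markers with Spry2 (0.0634 on plate 2 and 0.320 on plate 3), microglia markers with Fgfrl1 (-0.0925 and -0.284) and smooth muscle markers with Fgf1 (0.212 and 0.164). The 7 endothelial markers summed to 0 to 337 CPM per cell with a median of 5.41 CPM, the 7 microglia markers to 0 to 1079 CPM with a median of 0, and the 7 smooth muscle markers to 0 to 1013 CPM with a median of 11.6 CPM. The endothelial genes Cdh5 and Kdr were detected in 0 cells, as were the microglia gene Tmem119 and the smooth muscle genes Cnn1 and Des. The smooth muscle genes found most often were Acta2 in 39 cells (15.6%) and Myl9 in 28 (11.2%), with Myl9 reaching 999.9 CPM. Among endothelial genes these were Flt1 in 8 cells and Slco1a4 in 6, and among microglia genes P2ry12 and C1qb in 5 each. For each of these 3 types, 1 cell had at least 3 markers detected, and their part in the values of the members was not tested.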

How the data were processed

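The authors' deposited table of whole-number read counts per gene and cell was used as it stands, and their second table, scaled to a common total per cell, was not used. The submitters' processing notes name the aligner STAR (2.4.2a) and the build mm10. The sources used here do not state the counting tool, strand setting, annotation or cell filter. All 250 columns were matched by name, and 0 were left over. Counts were divided by the cell's total and scaled to 1000000 (CPM). Gene lengths came from GENCODE M21, and positions and promoters from RefSeq on GRCm38.p6, the assembly mm10 names. Isoforms cannot be told apart in gene counts. Python 3.11.15, numpy 2.4.6, pandas 2.3.3 and scipy 1.17.1 were used, and the code was tested on simulated data. No cell was removed and no doublet caller was run on these sorted wells.

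The members and lists were chosen with earlier results of these data known. The text names the members, pathway genes detected in at least 50% of cells, the most abundant gene of each list, and the 5 highest and 3 lowest correlated genes. Other pathway genes, Tagln, the single markers of other cell types and the genes set beside Agt and Sparc were chosen after their values were seen. Some genes that this rule names are not reported here. Alternatives were other thresholds (1 read, 50 CPM), thinning to 50000 reads, each plate alone, other lengths and correlations, and leaving out cells with 3 or more markers of another type. Means carry the SD between cells, and cells are not replicates.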

Additional observations from a re-analysis of the deposited data

How the results depend on the processing

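The share of cells with a Sprouty member was 93.6% at 1 read and 85.2% at 50 CPM, where it was 90.0% at 10 CPM, and this was beyond its counting interval. The mean Fgfr3 share of the receptor level, 75.9% with exon lengths, was 75.1% with the longest transcript, 75.2% with no length correction, 73.2% from the summed reads and 76.6% without the 44 cells with 3 or more markers of another type, each farther off than the plates were from each other. The other shares of cells stayed within their counting intervals under each alternative run. Such an interval describes the sampling of cells and does not measure a change of threshold in the same cells. Here it served only as a yardstick, and its width differs between the shares. The count of members in at least 50% of cells was 3 under each of the 7 alternatives, and the count of pathway genes was 6 to 12 around 9. The mean pairwise rho of the members was 0.0116 to 0.0396 around 0.0256. An alternative that ignores oligodendrocyte markers when leaving out cells was chosen after seeing the data. No paired analysis was possible because there is 1 group. The number of cells limits the share with an Fgf2 read to at most 1.46% (upper end of the exact 95% interval), and genes at 0 in a cell may be below what its reads could show.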
